A study of Arabidopsis thaliana with 6 samples.

Results

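The tubulin genes described here are 5 beta-tubulin genes, TUB1, TUB5, TUB6, TUB7 and TUB9, and the alpha-tubulin gene TUA6, measured in shoots of Arabidopsis thaliana seedlings that grew in the dark in orbit or on the ground. They were taken by gene symbol, each with a probe set that the array's annotation assigns to 1 gene, and they are 6 of the 13355 genes measured that way. They are not the whole family: TUA1, which also has a probe set of its own and did not pass the test, was not among the genes chosen and is described with the other tubulins. Each was read by 1 probe set. The flight group holds 3 arrays of shoots labelled Spaceflight and the ground group 3 arrays labelled Ground Control, and the arrays of each group are numbered 2, 3 and 4. Seedlings of both groups were of the Landsberg ecotype (LER-0), and both carry the same growth protocol, with darkness and with dishes in canister hardware of the kind flown on the space shuttle. The sample titles also carry the letter f in flight and h on the ground, which the labels do not explain, so what it marks cannot be told apart from flight in any difference given here. No other treatment is named, and the labels used here give neither the age of the seedlings nor how many were pooled. The series is titled for the plant cytoskeleton in microgravity, so the question is which tubulin transcripts differed between flown and ground shoots.

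Microtubules are hollow polymers of alpha- and beta-tubulin joined as a heterodimer. In a growing plant cell they lie under the plasma membrane, where they guide the cellulose synthase complexes that lay down the wall, and so they help to set the direction in which the cell expands. Shoots of dark-grown seedlings lengthen mainly by expansion of existing cells. Arabidopsis encodes both subunits in small families whose members differ in where and when they are transcribed. TUB1 is known for a transcript that falls in light. TUA6 is the subunit most often tagged to image plant microtubules, and certain dominant mutations in it twist the organs of the plant.

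Values are log2 readings as deposited, in which 1 unit is a 2-fold difference, and array medians over 22746 probe sets lay between 2.15 and 2.24. The comparison was made in limma, a linear model that shares information on the spread across all probe sets, and a gene was called when its p-value, adjusted over all probe sets, was under 0.05. By that rule the flight arrays were higher in 939 probe sets (4.13%) and lower in 413 (1.82%), and 470 and 363 when each array was centred on its spike-in controls, whose mean was 9.61 in ground replicate 4 and 10.13 to 10.20 elsewhere. Seed storage transcripts (3 of 13 listed genes measured: PAP85, OLEO3 and AT3G01570) split the arrays across the groups: their mean was 8.44 and 8.53 in ground replicates 3 and 4, 4.96 in flight replicate 4, and 1.78 to 2.46 on the other 3 arrays, flight replicates 2 and 3 and ground replicate 2. Here and below, a listed gene counts as measured only where the annotation used assigns it a probe set of its own. Of the markers listed for shoot and root, 2 of 17 (CLV3 and SPCH) and 2 of 17 (EXPA7 and EXPA18) were measured. The annotation matched no others, and these all read below the median level, so the labelled tissue could not be checked. In control probe sets the 3′ minus 5′ reading for actin ran from 1.67 to 2.22 in flight and from 1.19 to 1.85 on the ground, for GAPDH from -0.04 to 0.32 and from 0.08 to 0.41, and for ubiquitin from 1.84 to 1.93 and from 1.52 to 2.12. The labels do not state that arrays of one group stem from separate plants or dishes, and p-values then measure only the spread among these arrays, part of which may be technical.

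TUB1 and TUB6 rose most in flown shoots, by 5.97-fold and 4.03-fold, and TUB7 and TUA6 rose by 2.57-fold and 2.46-fold. TUB5 and TUB9 were also higher on every flight array, but by 2.18-fold and 1.58-fold, and their differences did not pass the adjusted threshold. None of the 6 read lower in flight. In pooled tissue such as this, more transcript per cell and more cells of a type that transcribes the gene cannot be told apart.

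TUB1 (AT1G75780) read 7.47, 7.32 and 7.09 in flight replicates 2, 3 and 4, and 5.31, 4.54 and 4.29 in ground replicates 2, 3 and 4. The lowest flight array lay 1.77 above the highest ground array, the widest such gap of the 6 genes. The flight mean of 7.29 ± 0.19 exceeded the ground mean of 4.71 ± 0.53 (log2, SD, n = 3) by 2.58 (SE 0.27, 95% confidence interval 1.94 to 3.22) with a limma adjusted p of 0.00544. That change was larger than those of 99.8% of all probe sets.

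TUB6 (AT5G12250) read 7.32, 7.75 and 7.30 in flight and 5.83, 5.26 and 5.25 on the ground, in the same order of replicates. The flight arrays again stood clear of the ground arrays, by 1.46. The change was 2.01 (SE 0.22, interval 1.50 to 2.52), with a limma adjusted p of 0.00586. Both TUB1 and TUB6 were called in every one of the 15 alternatives tried, with changes of 2.08 to 2.88 and 1.70 to 2.20.

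TUA6 (AT4G14960), the alpha-tubulin, had the highest reading of the 6 on every array, at 8.66, 8.38 and 8.44 in flight and 7.51, 7.12 and 6.96 on the ground. The groups did not overlap, with a gap of 0.88. TUA6 rose by 1.297 (SE 0.18, interval 0.87 to 1.73; limma adjusted p 0.0121). The call was lost without any 1 flight array (adjusted p 0.0506 to 0.0546, changes of 1.21 to 1.35) and on the 3 arrays with low seed storage transcripts (change 1.02, adjusted p 0.109).

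TUB7 (AT2G29550) had the lowest reading of the 6 on every array, at 5.34, 5.76 and 5.46 in flight and 4.70, 3.54 and 4.25 on the ground. Ground replicate 3 stood low, and the ground range of 1.16 was the widest of the 6 genes. TUB7 rose by 1.36 (SE 0.29, interval 0.67 to 2.06; limma adjusted p 0.0431). This call was the least stable of the 4: it passed in 4 of 9 alternatives that did not leave out a single array and in 1 of 6 that did, and its change was 0.86 on the 3 arrays with low seed storage transcripts.

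TUB5 (AT1G20010) read 6.41, 6.38 and 5.95 in flight and 5.49, 5.39 and 4.49 on the ground. Ground replicate 4, the array with the low spike-in mean, was the lowest, and the groups were separated by 0.46. The difference was 1.12 (SE 0.29, interval 0.44 to 1.81) with a limma adjusted p of 0.0716, and it was 0.81 without ground replicate 4 (adjusted p 0.0858). TUB5 passed the threshold in 4 of the 15 alternatives: with dim probe sets left out (adjusted p 0.0498), a trended and robust prior (0.0453), the replicate number as a block (0.0322) and without ground replicate 2 (0.0485).

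TUB9 (AT4G20890) read 6.51, 6.83 and 6.67 in flight and 6.34, 5.80 and 5.90 on the ground. Ground replicate 2 came within 0.17 of the lowest flight array, the narrowest gap of the 6 genes. The difference was 0.66 (SE 0.19, interval 0.22 to 1.09; limma adjusted p 0.0961). It passed only without ground replicate 2 (0.82, adjusted p 0.0326), and on the 3 arrays with low seed storage transcripts it was 0.33 (adjusted p 0.578).

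**Figure D1:**
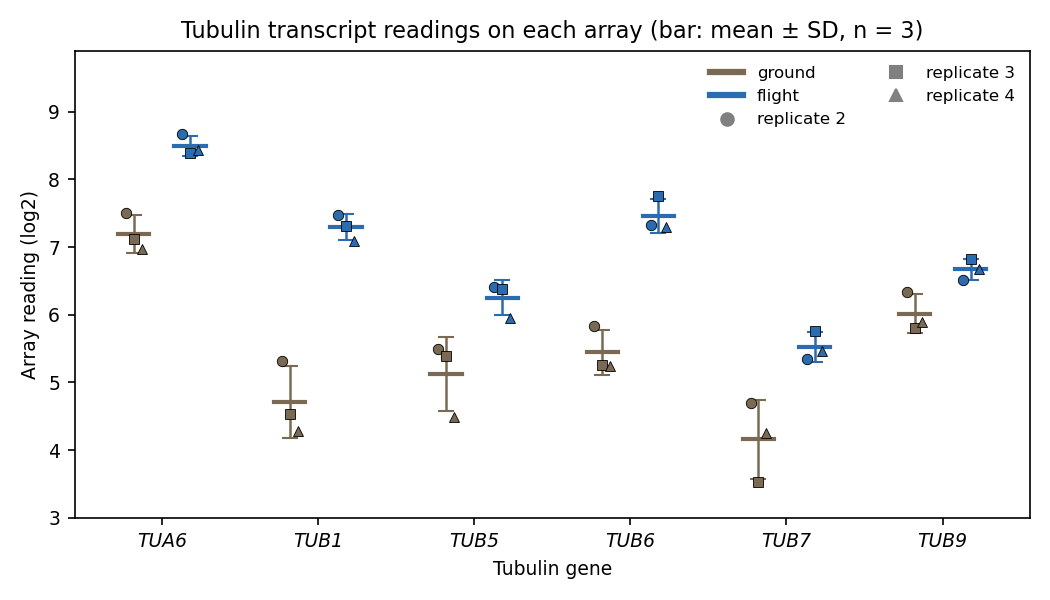
Array readings (log2) of the 6 tubulin genes, with ground arrays in brown and flight arrays in blue; the marker shape gives the replicate number and the bars the mean ± SD of 3 arrays. Flight and ground arrays do not overlap for any gene, and the gap runs from 0.17 for TUB9 to 1.77 for TUB1.

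In all, 4 of the 6 tubulins were called higher and 0 lower, where 4.13% and 1.82% of all probe sets were. All 6 had groups that did not overlap with flight higher, against 14.2% of all probe sets. The tubulins are bright on this array, and brighter probe sets were called more often: at or above the median level, 7.48% were called higher and 21.5% had flight arrays all above ground arrays. The median change was 1.33 over the tubulins, 0.06 over the probe sets at or above the median level and -0.02 over all. Against that brighter set, the change of TUB9 exceeded 83.7% of changes, that of TUB5 93.7%, and that of TUB1 99.5%. The 6 genes were chosen with earlier results of these data known, so these counts and shares describe them and do not test the family. TUA1, with a change of 0.05 and groups that overlapped, is not counted among them. The count of 4 became 2 on the 3 arrays with low seed storage transcripts and without any 1 flight array, and 6 without ground replicate 2.

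**Figure D2:**
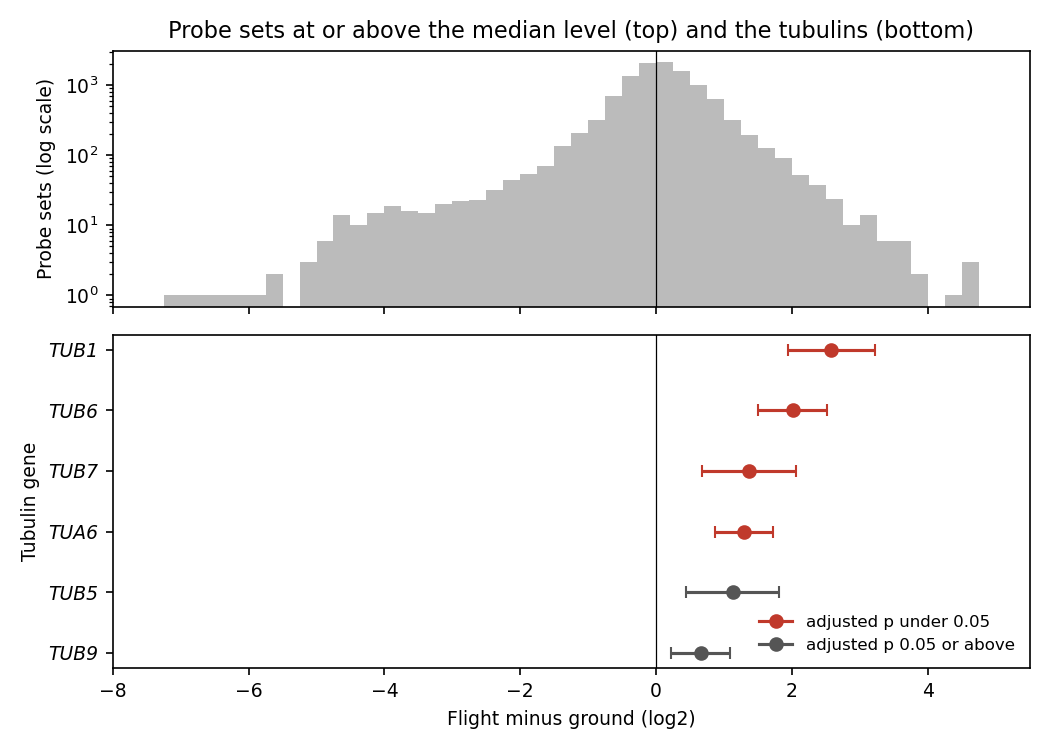
Upper panel: number of probe sets at or above the median level (log scale) by their flight minus ground difference (log2). Lower panel: the same difference for each tubulin with limma's 95% confidence interval, in red where the adjusted p was under 0.05. The tubulins lie at 0.66 to 2.58, to the right of the background median of 0.06.

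The order of the 6 readings differed between the groups. Probe sets bind with unequal strength, so this order is one of readings and not of transcript amounts. The shift of a within-array difference between groups is not altered by adding a constant to a probe set or to an array. That covers constants only, so such a shift is also one of readings. On the ground the order of means was TUA6 (7.20 ± 0.28), TUB9 (6.01 ± 0.29), TUB6 (5.45 ± 0.33), TUB5 (5.12 ± 0.55), TUB1 (4.71 ± 0.53) and TUB7 (4.16 ± 0.58, log2, SD, n = 3). In flight it was TUA6 (8.50 ± 0.15), TUB6 (7.46 ± 0.25), TUB1 (7.29 ± 0.19), TUB9 (6.67 ± 0.16), TUB5 (6.25 ± 0.26) and TUB7 (5.52 ± 0.22). TUA6 stayed first and TUB7 last on all arrays. TUB9 ranked 2 of 6 on each ground array and 4 of 6 on each flight array, and TUB1 ranked 5 of 6 on each ground array and 2 or 3 of 6 in flight.

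Not every step in that order was larger than its spread. On the ground, TUB6 stood above TUB5 on 2 of 3 arrays, with a mean gap of 0.32 and within-array differences from -0.13 to 0.76. In flight, TUB6 stood above TUB1 on 2 of 3 arrays, with a gap of 0.16 and differences from -0.15 to 0.43. The steps from TUA6 to TUB9 and from TUB9 to TUB6 on the ground were even from array to array, at 1.18 ± 0.13 and 0.57 ± 0.08 (SD of the within-array difference, n = 3). TUB5 over TUB1 and TUB1 over TUB7 on the ground held on 3 of 3 arrays, but by as little as 0.18 and 0.04. TUB9 over TUB5 in flight also held on 3 of 3 arrays, by as little as 0.09. In percentiles of all probe sets, the ground means ran from 75.1 (TUB7) to 95.7 (TUA6) and the flight means from 86.6 to 98.5, with TUB1 at 80.0 on the ground and 95.9 in flight.

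The changes of the 6 genes ran from 0.66 to 2.58, and the spread among them was examined pair by pair. Each of the 15 pairs was compared by the difference of its 2 readings on every array, with an exact two-sided permutation test of 3 arrays against 3, in which the smallest possible p is 0.1. In 11 of 15 pairs the flight and ground differences did not overlap, each at that smallest p of 0.1 and at 0.136 after adjustment over the 15 pairs in the exact test, so no pair could pass. The widest shift was between TUB1 and TUB9. TUB1 minus TUB9 was -1.299 ± 0.29 on the ground and 0.62 ± 0.30 in flight (log2, SD, n = 3). That is a shift of 1.92, or 3.79-fold in the ratio of the 2 readings. TUB6 against TUB9 moved the same way with a smaller spread, from -0.57 ± 0.08 to 0.79 ± 0.15, a shift of 1.35.

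TUB1 also moved against the alpha-tubulin TUA6, from -2.48 ± 0.26 on the ground to -1.20 ± 0.14 in flight, a shift of 1.28, and against TUB5 by 1.45. Between the genes with the largest rises, TUB1 and TUB6, the shift was 0.57, from -0.73 ± 0.22 to -0.16 ± 0.30. The remaining 4 pairs overlapped. TUB7 and TUA6 differed in their change by 0.07 (exact p = 0.8, n = 3 arrays each), with within-array differences of -3.32 to -2.62 in flight and -3.59 to -2.72 on the ground. TUB7 against TUB5 shifted by 0.24 (exact p = 0.8), TUA6 against TUB5 by 0.17 (0.6) and TUB5 against TUB9 by 0.47 (0.3). With 3 arrays a group, these p-values do not show that the genes in such a pair changed alike.

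**Figure D3:**
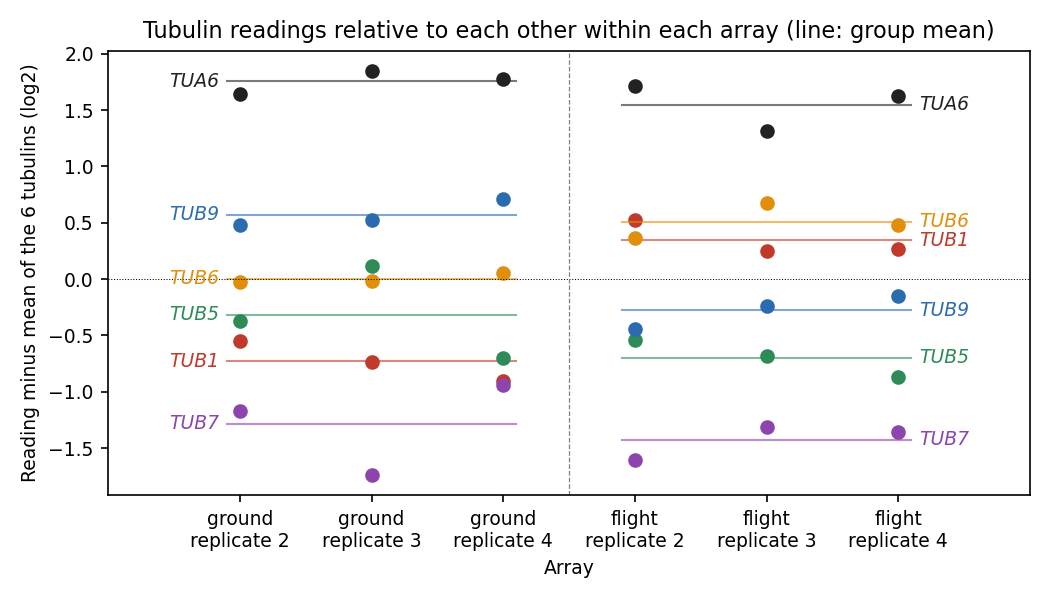
Reading of each tubulin minus the mean of the 6 on the same array (log2), by array; horizontal lines mark the group means. TUB1 moves from below to above the mean and TUB9 from above to below it between the ground and flight arrays, while TUA6 stays highest and TUB7 lowest.

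The ground arrays varied more than the flight arrays. The SD was larger on the ground for all 6 tubulins, as it was for 68.7% of probe sets at or above the median level, where the median SD was 0.22 in flight and 0.33 on the ground. Ground replicate 2 had the highest ground reading of all 6 genes, by 0.46 (TUA6) to 0.90 (TUB1) over the mean of the other 2 ground arrays; 37.1% of probe sets at or above the median level had their highest ground reading there. It was also the ground array with low seed storage transcripts. The mean of the 6 tubulins was 5.86 in ground replicate 2, against 5.28 and 5.19 in replicates 3 and 4 and 6.82 to 7.07 in flight.

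Set against ground replicate 2 alone, the flight means were higher by 1.98 (TUB1), 1.62 (TUB6), 0.99 (TUA6), 0.83 (TUB7), 0.76 (TUB5) and 0.33 (TUB9). With the seed storage mean as a covariate the changes were 2.17, 1.72, 1.105, 1.02, 0.83 and 0.45 in that order, and TUB1, TUB6 and TUA6 stayed under an adjusted p of 0.05 in limma (0.00837, 0.0122 and 0.0324). Flight replicate 4, with an intermediate seed storage mean, had the lowest flight readings of TUB1, TUB5 and TUB6 but not of the other genes.

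**Figure D4:**
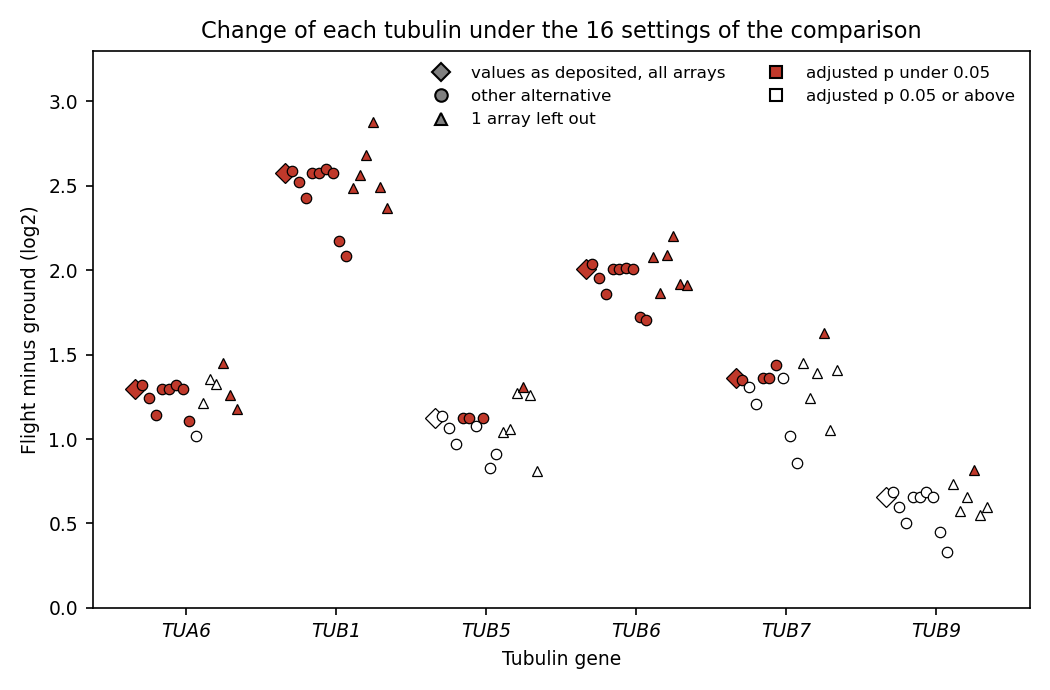
Flight minus ground difference (log2) of each tubulin under 16 settings: the values as deposited with all arrays (diamond), 9 other alternatives (circles) and 6 with 1 array left out (triangles); red fill marks an adjusted p under 0.05. TUB1 and TUB6 are red throughout, at 1.70 or above, and every value of every gene lies above 0.

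Few other genes of the microtubule system could be read with the annotation used here. In it, 8730 of 22746 probe sets carry no gene symbol. A listed gene without a match may therefore still have a probe set on the array. Of 11 other tubulin genes listed, 1 had a probe set assigned to it alone. That gene, TUA1 (AT1G64740), an alpha-tubulin known for its expression in pollen, read 3.73, 3.83 and 3.74 in flight and 3.77, 3.53 and 3.84 on the ground, and the groups overlapped. Its change was 0.05 (SE 0.14, limma adjusted p 0.880). An alpha-tubulin probe set that the annotation shares between several genes read 8.47, 8.55 and 8.39 in flight and 7.62, 7.93 and 7.50 on the ground, a change of 0.79 (SE 0.16, limma adjusted p 0.0350), and gives no level for a single gene.

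Of 12 listed genes for the folding of tubulin, 2 were measured and 0 were called. They were the tubulin folding cofactor genes PFI (AT1G71440), with a difference of 0.53 (adjusted p 0.162), and POR (AT4G39920), with 0.23 (0.510). Of 48 listed genes for proteins that bind, sever or nucleate microtubules, 13 were measured, 1 was called higher and 0 lower. Their median change was 0.15. Over all genes with 1 probe set each, 3.47% were called higher and 1.51% lower, with a median of -0.04. Of the 13, 7 read at or above the median level and changed by 0.15 to 1.39. All probe sets at that level had a median change of 0.06. The dimmer genes of the list changed by -0.10 to 0.13. The called gene was SP1L3 (AT3G02180), of the SPIRAL1 family of small microtubule-binding proteins that help keep growth straight. It read 6.99, 7.38 and 7.14 in flight and 5.85, 6.16 and 5.32 on the ground, and rose by 1.39 (SE 0.24, limma adjusted p 0.0214), a call lost with the seed storage covariate, without any 1 flight array and on the 3 arrays with low seed storage transcripts.

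The next largest differences in that list were 0.95 in AT4G32330 (adjusted p 0.0768), for which the annotation used here gives no symbol, 0.69 in TON1B (AT3G55005), a gene for the preprophase band that marks the division plane (0.152), and 0.59 in SPR1 (AT2G03680), the founding member of the SPIRAL1 family (0.217). SPR1 was bright in both groups, at 8.16 ± 0.26 and 7.57 ± 0.40 (log2, SD, n = 3). For cellulose synthesis, 1 of 9 listed genes was measured and called higher. It was COB (AT5G60920), for a protein needed for oriented expansion, and read 7.78 to 8.19 in flight and 6.23 to 6.66 on the ground. Of 8 listed actin genes 2 were measured, ACT11 and ACT12, both below the median level, and 0 were called.

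The 6 tubulins followed each other across the arrays, with a Pearson r against the mean of the other 5 from 0.89 (TUB5) to 0.99 (TUB1) over 6 arrays. All flight readings lay above all ground readings for each gene, so the difference between the groups enters every r. Its share of r was not computed. Among 1740 other genes at or above the median level with an SD over the arrays of at least 0.5, the 5 closest to the tubulin mean were AT1G27400 (r = 0.997), AT1G52670 (0.997), AT1G26850 (0.996), AT1G30440 (0.995) and AT4G09890 (0.994), none with a symbol here. AT1G27400 read 8.18, 8.31 and 8.19 in flight and 7.40, 7.005 and 6.84 on the ground, so it shared the high ground replicate 2 with the tubulins. The changes of the 5 ran from 1.15 (AT1G27400) to 1.89 (AT4G09890). Of the 1740 genes, 149 had an r of at least 0.95, so the pattern was not particular to the tubulins. These correlations describe 6 arrays in 2 groups and carry no test.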

How the data were processed

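Shoot RNA was isolated on columns and, after whole-transcriptome amplification, biotin-labelled, per the labels' protocols. The deposited value table holds log2 expression values as made by the authors, with the log base read from their range of 0.63 to 12.98. Per the submitters' processing notes, the tools were RMA, PLIER and MAS5; the sources used here do not give which one made the table, or its background correction. Detection calls were not used, so a reading near the median cannot be called expressed or not, and the number of arrays limits the precision.

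Control probe sets (64) were left out. Of 22746 others, 13513 carry 1 gene symbol, 503 several and 8730 none here; genes were named through RefSeq (TAIR10.1) by gene identifier. With several probe sets, that with the highest mean was used. Flight was set against ground in limma 3.58.1 under R 4.3.3 (lmFit, eBayes, two-sided, no covariate) with Benjamini-Hochberg adjustment, and the procedure was tested on simulated data. Pairs of tubulins were compared with exact permutation tests in scipy 1.17.1. Pearson correlations between arrays ran from 0.895 to 0.982, so none were copies. Figures were drawn with matplotlib 3.10.9.

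The members, lists and alternatives were chosen with earlier results of these data known. Named are all members, the other measured tubulin, up to 4 genes of each list with the largest absolute change, and the 5 genes most like the tubulin mean; genes of the actin, seed storage, shoot and root lists are named without single values. Protein and promoter sequences were not used here.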

Additional observations from a re-analysis of the deposited data

How the results depend on the processing

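The 6 tubulins were higher in flight under all 15 alternatives, with none reversed, and the calls of TUB1 and TUB6 did not change in any. TUB7 missed the threshold with median centring (1.31), spike-in centring (1.21), the replicate block (1.36), the seed storage covariate (1.02) and in the fit of 3 arrays, flight replicates 2 and 3 and ground replicate 2 (0.86), where TUA6 missed it too (1.02). TUB5 passed, at 1.12, with dim probe sets left out, with a trended and robust prior and with the replicate block. With 1 array left out the changes ran from 1.18 to 1.45 in TUA6, 2.37 to 2.88 in TUB1, 0.81 to 1.31 in TUB5, 1.86 to 2.20 in TUB6, 1.05 to 1.63 in TUB7 and 0.55 to 0.82 in TUB9. The count of called tubulins ran from 2 to 6 then and was 2 on those 3 arrays, and that of microtubule-associated genes ran from 0 to 1 and was 0 with the covariate and on those 3 arrays. Over all probe sets, 470 were higher with spike-in centring, 415 with the covariate and 346 on the 3 arrays, 188 to 1124 were higher and 83 to 782 lower with 1 array left out, against 939 and 413; fewer samples enter such fits, and otherwise the cause was not tested. In the fit of 3 arrays the lone ground array is assumed to vary like the flight arrays. Spike-in centring moved the median of all probe sets from -0.02 to -0.17.

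Same-numbered arrays deviated from their group means with correlations of 0.20, -0.03 and 0.27, and differently numbered arrays with -0.39 to 0.23. These values do not settle whether the numbers pair the arrays, and the main fit did not pair them. With the replicate block 4 tubulins were called, TUB5 among them and TUB7 not. Of the 15 pairs, 12 shifted the same way in all 3 numbers (smallest possible p 0.25 in an exact sign-flip test). Pairs whose groups did not overlap numbered 11 to 12 with 1 array left out. The shift of TUB7 against TUA6 ran from -0.21 to 0.24 then, that of TUB7 against TUB5 from -0.21 to 0.60, that of TUA6 against TUB5 from -0.00023 to 0.37 and that of TUB5 against TUB9 from 0.21 (without ground replicate 4) to 0.71 (without ground replicate 3), and the first pair shifted by -0.16 and the second by -0.051 on the 3 arrays. Averaging a gene's probe sets was not run, since the annotation used here assigns 1 to each tubulin.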
